A study of Homo sapiens with 16 samples.

Results

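The 10 genes described here are the transcription factor NFE2L2 (NRF2), its inhibitor KEAP1 and 8 enzymes of the NRF2 antioxidant programme: NQO1, HMOX1, GCLC, GCLM, TXNRD1, SRXN1, AKR1B10 and AKR1C1. They were chosen by name from the 26258 genes of the deposited table, in which all 10 were found through their Entrez identifiers. The libraries came from Huh7 and Hep3B, 2 human hepatocellular carcinoma (HCC) cell lines, and from derivatives made resistant to Sorafenib, a multi-kinase inhibitor used against HCC. IR cells had been raised in increasing concentrations of the drug and CR cells in a constantly high concentration, and both were kept in 7 µM Sorafenib. Parental and DMSO cells of each line were labelled untreated, DMSO being the solvent, with nothing more said of the DMSO cells. Selected resistance and the presence of the drug therefore cannot be told apart in any comparison of resistant with untreated cells. Each of the 8 groups had 2 libraries of poly(A)-selected RNA, and each resistant group was 1 selected line, so that its libraries share that selection.

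NRF2 is a basic leucine zipper protein that is held low in unstressed cells, because KEAP1 binds it and hands it to an ubiquitin ligase. Oxidants and electrophiles modify cysteines of KEAP1, NRF2 then accumulates, pairs with small MAF proteins and binds antioxidant response elements (AREs) near genes for glutathione synthesis, thioredoxin reduction and detoxification. The control acts mostly on the protein, so that the mRNA of NFE2L2 itself is a poor measure of its activity. In liver the programme clears quinones, aldehydes and drug metabolites, and it is often switched on in HCC.

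The promoters of the 10 genes were searched for the core of the ARE, TGACNNNGC, on both strands. RefSeq promoter windows (GRCh38.p14, 250 bases before to 50 bases after each start) were held for 8 of the 10 genes, in 11 windows, but not for HMOX1 and AKR1B10. The core was in windows of 3 genes (KEAP1, GCLM and TXNRD1), against 13.3% of all 35116 windows and 16.1% of 27305 genes with a window. One core of each gene is shown, because GCLM fell in both resistant Huh7 lines, and KEAP1 and TXNRD1 are the other 2 with the core. KEAP1 and TXNRD1 hold further cores, and the core most like that of GCLM is shown for each. Likeness between the cores shown is therefore not a result. The capitals mark the core, read on the strand of the gene.
GCLM, chr1:93909446-93909474, minus strand: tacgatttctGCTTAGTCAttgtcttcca
KEAP1, chr19:10502784-10502812, minus strand: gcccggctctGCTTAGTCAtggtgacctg
TXNRD1, chr12:104286920-104286948, plus strand: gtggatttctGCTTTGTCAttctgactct
GCLM and KEAP1 carried the same 9 letters, GCTTAGTCA, which hold the core on the other strand, 34 and 31 bases before the start. KEAP1 held another core in the same window, 54 bases before the start, and TXNRD1 held 2 more in its other window, 99 and 8 bases before that start. No core was found in the windows of NFE2L2, NQO1, GCLC, SRXN1 and AKR1C1. Sequence outside the windows was not searched, so these genes may hold a core elsewhere. A match to the core is a description of the letters only.

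Values are CPM as deposited, the reads of a gene scaled to a fixed total per library, so that a gene can be compared between libraries but not with another gene of different length. The libraries held 46613302 to 76860251 reads, and of the 10 genes AKR1B10 in Hep3B had the fewest, with 1 and 4 reads in IR and 49 or more in the other libraries. Differences were tested with limma on log2(CPM + 1) over 15019 genes, those reaching 1 CPM in 2 or more libraries, a filter that all 10 genes passed. A gene was called higher or lower where the Benjamini-Hochberg adjusted p was under 0.05 and the log2 fold change was at least 0.58 in size. On GRCh37, the build the authors used, GENCODE v44lift37 places NQO1 at chr16:69740899-69760571 (minus strand, 6 exons), HMOX1 at chr22:35776354-35790207 (plus, 5 exons), GCLM at chr1:94350755-94375012 (minus, 7 exons) and AKR1C1 at chr10:5005445-5025475 (plus, 9 exons), and reads were counted over exons. The identity of the cultures was looked at through 8 hepatocyte markers, whose summed level was 10460 to 21034 CPM in parental and 22474 to 35892 CPM in DMSO libraries of both lines. It was lower in the resistant libraries, at 87.7 and 396 CPM in Huh7 IR, 1297 and 2681 CPM in Huh7 CR, 3353 and 10182 CPM in Hep3B IR, and 1191 and 2020 CPM in Hep3B CR. By gene, 7 of the 8 markers were called lower in Huh7 IR and 6 each in Huh7 CR and Hep3B CR. In Hep3B IR only 3 were called lower, 1 was called higher and 4 were not called. Mean SERPINA1 there was 1606 CPM, against 469 CPM in parental cells. The lower sum went with every comparison of resistant with untreated cells below, and its part in the results was not tested. Of 4 blood and endothelial markers, the T cell gene CD3E and the endothelial gene CDH5 were at or near 0 in nearly all libraries (at most 0.053 CPM for CD3E, and 1.49 CPM for CDH5 in 1 Huh7 DMSO library). The leukocyte gene PTPRC and the endothelial gene PECAM1 passed the filter and were called lower in both resistant Huh7 lines and in neither Hep3B line. The sum of the 4 was 2.01 and 2.53 CPM in Huh7 parental, 3.38 and 7.15 CPM in Huh7 DMSO and 0.0995 to 0.576 CPM in resistant Huh7 libraries, against 0.408 to 1.10 CPM over all Hep3B libraries, and its part in the Huh7 results was not tested. In whole cultures, fewer cells with an mRNA and less mRNA per cell cannot be told apart.

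**Figure D1:**
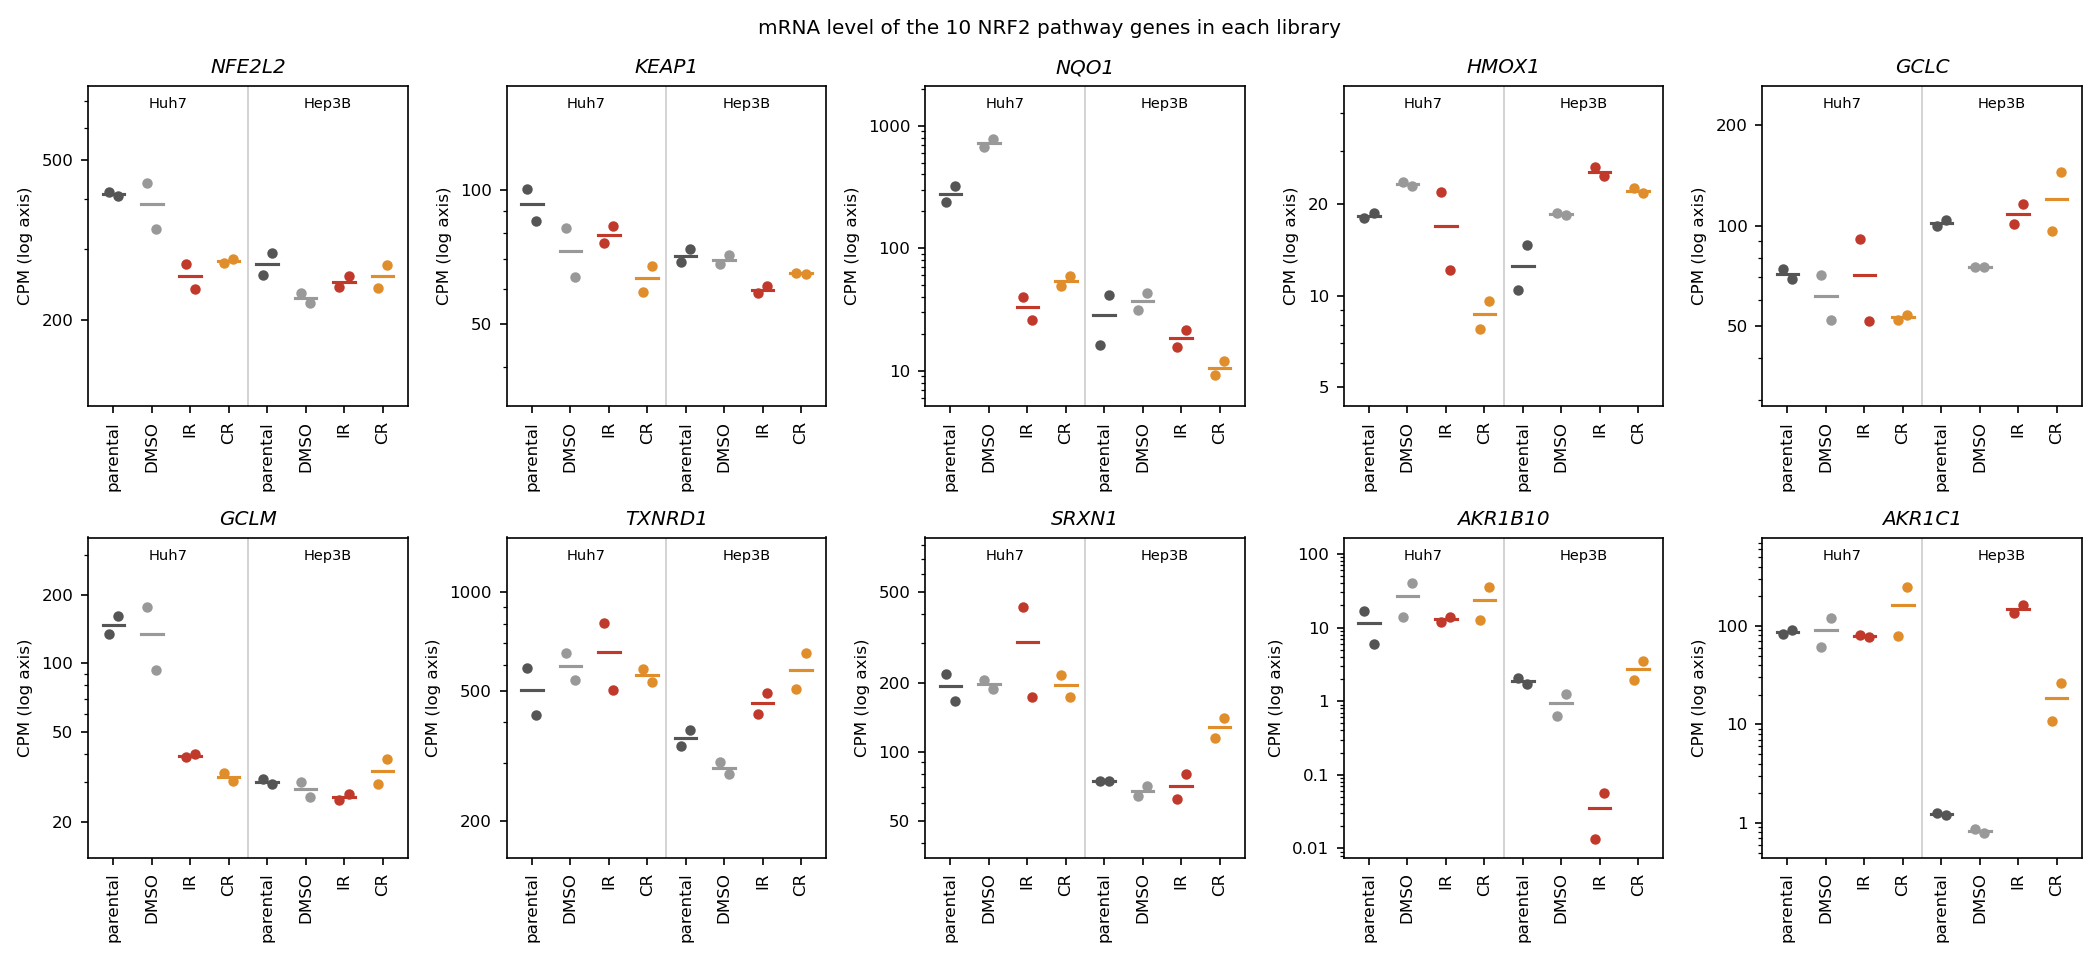
CPM (log axis) of the 10 genes in each of the 16 libraries, with the 4 groups of Huh7 on the left and of Hep3B on the right of each panel; points are libraries and short lines are group means of 2 libraries. NQO1 and GCLM drop in Huh7 IR and CR, and AKR1C1 climbs from about 1 CPM in untreated Hep3B cells to 135 and 164 CPM in Hep3B IR.

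NFE2L2 fell in Huh7 IR cells, whereas its inhibitor KEAP1 was not called in any comparison with parental cells. NFE2L2 stood at 416 and 407 CPM in Huh7 parental, 438 and 336 CPM in Huh7 DMSO, 275 and 239 CPM in Huh7 IR and 277 and 283 CPM in Huh7 CR libraries. All 4 resistant Huh7 libraries lay below all 4 untreated ones. The log2 fold change was -0.68 ± 0.14 (SE, 2 libraries per group, adjusted p = 0.00133) in IR and -0.55 ± 0.14 (adjusted p = 0.00746) in CR cells, the latter just short of the fold threshold and so not called. The IR value was not called either, at -0.58 both times, against DMSO libraries or without replicate 2 of Huh7 IR. In Hep3B, NFE2L2 ranged from 220 to 293 CPM over all 8 libraries, and its groups overlapped or lay close together. IR cells gave a log2 fold change of -0.14 and CR cells one of -0.10 (SE 0.14).

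KEAP1 was at 101 and 85.4 CPM in Huh7 parental, 82.4 and 63.9 CPM in DMSO, 76.0 and 82.9 CPM in IR and 59.1 and 67.5 CPM in CR libraries. Huh7 CR was the lowest group of the line, yet it overlapped the DMSO group. Its log2 fold change against parental cells was -0.55 ± 0.14 (adjusted p = 0.00778), under the fold threshold. Scaling with TMM factors also shifted the median of all genes in Huh7 CR from 0.07 to 0. With these factors both NFE2L2 and KEAP1 were called lower in Huh7 CR cells, as they were by edgeR and DESeq2 on the recovered reads. The KEAP1 value was -0.66 without replicate 2 of the parental cells and -0.64 without that of the CR cells. Hep3B libraries held between 58.7 and 73.6 CPM of KEAP1, with log2 fold changes of -0.25 in IR and -0.13 in CR cells.

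NQO1 (NAD(P)H quinone dehydrogenase, which reduces quinones without forming radicals) showed the widest range of the Huh7 values and fell in both resistant Huh7 lines. It measured 239 and 320 CPM in parental, 674 and 775 CPM in DMSO, 40.2 and 25.9 CPM in IR and 48.9 and 58.9 CPM in CR libraries of Huh7. All 4 resistant libraries lay below all 4 untreated ones. NQO1 was 8.46-fold lower in mean CPM in Huh7 IR (log2 fold change -3.06 ± 0.36, adjusted p = 2.1e-05) and 5.19-fold lower in Huh7 CR cells (-2.34 ± 0.36, adjusted p = 0.000275). Against the DMSO cells, in which NQO1 was itself higher than in parental cells, the differences were -4.45 and -3.73.

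Untreated Hep3B cells had less NQO1 than untreated Huh7 cells. Its Hep3B levels were 16.1 and 41.2 CPM in parental, 31.2 and 43.1 CPM in DMSO, 15.7 and 21.3 CPM in IR and 9.20 and 11.9 CPM in CR libraries. The Hep3B parental libraries differed from each other more than the IR libraries differed from the lower of them. Hep3B CR was called lower (-1.23 ± 0.36, adjusted p = 0.0171), a call that was lost without replicate 2 of the parental cells (-0.57) or replicate 1 of the CR cells (-1.06). Hep3B IR was not called (-0.47 ± 0.36, adjusted p = 0.348) except without replicate 1 of the parental cells (-1.13, adjusted p = 0.0229).

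HMOX1 (haem oxygenase 1, which opens the haem ring to biliverdin, carbon monoxide and iron) fell in Huh7 CR cells and rose in both resistant Hep3B lines. Huh7 levels were 18.0 and 18.7 CPM in parental, 23.7 and 23.0 CPM in DMSO, 21.9 and 12.1 CPM in IR and 7.77 and 9.57 CPM in CR libraries. Huh7 CR was below every other Huh7 library, with a log2 fold change of -1.01 ± 0.23 (adjusted p = 0.0047), whereas the IR libraries straddled the parental ones. Hep3B levels were 10.4 and 14.7 CPM in parental, 18.7 and 18.4 CPM in DMSO, 26.5 and 24.8 CPM in IR and 22.6 and 21.7 CPM in CR libraries. All 4 resistant Hep3B libraries exceeded the untreated ones, and HMOX1 rose on the log2 scale by 0.99 ± 0.23 in the IR line (adjusted p = 0.00672) and by 0.79 ± 0.23 in the CR line (adjusted p = 0.0184). Neither call held against the DMSO libraries, where the log2 differences were 0.44 (adjusted p = 0.159) and 0.24 (adjusted p = 0.442), nor without replicate 1 of the Hep3B parental cells, where they were 0.76 and 0.56, and the CR call was also lost without either CR library (0.77 and 0.82).

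Glutathione synthesis begins with glutamate-cysteine ligase, an enzyme of a catalytic subunit, GCLC, and a modifier subunit, GCLM, that raises its affinity for glutamate. The modifier fell in both resistant Huh7 lines and the catalytic subunit was not called in any of the 4 resistant lines. GCLM amounted to 134 and 161 CPM in parental, 177 and 93.1 CPM in DMSO, 38.9 and 39.8 CPM in IR and 32.8 and 30.3 CPM in CR libraries of Huh7. The resistant libraries did not overlap the untreated ones. Its log2 fold change was -1.88 ± 0.24 in Huh7 IR (adjusted p = 3.7e-05) and -2.19 ± 0.24 in Huh7 CR cells (adjusted p = 2.1e-05), or 3.75-fold and 4.68-fold lower mean CPM. The 8 Hep3B libraries held 25.2 to 38.1 CPM of GCLM, untreated and resistant alike, which overlaps the range of the resistant Huh7 libraries.

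GCLC lay at 74.4 and 69.4 CPM in parental, 91.1 and 51.7 CPM in IR and 52.0 and 54.1 CPM in CR libraries of Huh7. The Huh7 IR libraries fell on either side of the parental ones, and the log2 fold changes were -0.06 ± 0.25 in IR and -0.43 ± 0.25 in CR cells (adjusted p = 0.844 and 0.182). Hep3B values were 99.8 and 104 CPM in parental, 75.0 and 75.3 CPM in DMSO, 101 and 116 CPM in IR and 96.3 and 145 CPM in CR libraries, with log2 fold changes of 0.09 and 0.21.

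TXNRD1 (cytosolic thioredoxin reductase, a selenoprotein) and SRXN1 (sulfiredoxin, which repairs overoxidised peroxiredoxins) were not called lower in any resistant line. TXNRD1 read 339 and 379 CPM in parental, 303 and 278 CPM in DMSO, 424 and 493 CPM in IR and 504 and 649 CPM in CR libraries of Hep3B. Resistant libraries of Hep3B were above all untreated ones, and CR cells passed the test (0.67 ± 0.23, adjusted p = 0.0325), IR cells did not (0.35 ± 0.23, adjusted p = 0.267), except against DMSO libraries (0.65, adjusted p = 0.0374). With TMM factors the CR value was 0.56 (adjusted p = 0.0666), and the call was lost without either parental library (0.59 and 0.75) or replicate 2 of CR (0.49). In Huh7, TXNRD1 was at 585 and 420 CPM in parental, 806 and 501 CPM in IR and 583 and 532 CPM in CR libraries, and the groups overlapped; without replicate 2 of IR the IR difference was 0.70 (adjusted p = 0.0192).

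SRXN1 was at 74.8 and 74.4 CPM in parental, 62.0 and 79.9 CPM in IR and 115 and 141 CPM in CR libraries of Hep3B. Hep3B CR stood above all other Hep3B libraries without passing the adjusted test (0.76 ± 0.31, adjusted p = 0.0734); against DMSO libraries it did (0.91, adjusted p = 0.0364). In Huh7, SRXN1 read 220 and 167 CPM in parental, 429 and 173 CPM in IR and 216 and 175 CPM in CR libraries. Only replicate 1 of Huh7 IR stood out, and the log2 fold change of 0.50 ± 0.31 became 1.16 (adjusted p = 0.000795) without replicate 2 and -0.15 without replicate 1. In the coding sequence of SRXN1, 38.3% of 75-base stretches were shared with transcripts of another annotated gene, and the effect on SRXN1 counts was not tested.

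AKR1C1 and AKR1B10 are aldo-keto reductases, which use NADPH to reduce ketosteroids, aldehydes and retinal. AKR1C1 showed the widest change of the 10 genes against parental cells, in Hep3B, where it rose in both resistant lines. It was at 1.25 and 1.20 CPM in Hep3B parental, 0.872 and 0.795 CPM in DMSO, 135 and 164 CPM in IR and 10.9 and 26.4 CPM in CR libraries. The parental values rest on 93 and 85 reads and the IR values on 10114 and 11523. Hep3B IR rose by 6.07 ± 0.47 (adjusted p = 2.8e-06) and Hep3B CR by 3.02 ± 0.47 (adjusted p = 0.000422) on the log2 scale. Huh7 cells had the gene on from the start, at 81.9 and 91.4 CPM in parental, 61.4 and 121 CPM in DMSO, 80.7 and 76.8 CPM in IR and 79.5 and 248 CPM in CR libraries. Replicate 2 of Huh7 CR stood highest of the Huh7 libraries, and neither Huh7 comparison was called (-0.13 and 0.69, SE 0.47); without replicate 1 of Huh7 CR the value was 1.51 (adjusted p = 0.0264), and without replicate 2 it was -0.12.

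AKR1C1 has close neighbours. Over its coding sequence, 35.5% of all 75-base stretches (318 of 895) were also found in transcripts of AKR1C2, AKR1C3 or AKR1C4, so that uniquely mapped reads leave out part of the gene and its level is uncertain. AKR1C2 went from 0.902 and 1.13 CPM in Hep3B parental to 81.3 and 95.6 CPM in IR and 7.11 and 19.4 CPM in CR libraries. AKR1C3, a prostaglandin and androgen reductase, went from 1.06 and 0.675 CPM to 24.3 and 26.5 CPM and to 3.57 and 6.99 CPM. Both passed the test in the IR line (5.47 ± 0.51 and 3.82 ± 0.48) and in the CR line (2.68 ± 0.51 and 1.70 ± 0.48) of Hep3B, and neither was called in Huh7. The sequence before the start of AKR1C1 and AKR1C2, genes on opposite strands of chromosome 10, was the same in 245 of 246 aligned bases (99.6%). Whether this likeness had a part in their joint rise was not tested, and the sequence before AKR1C3, which rose as well, was not compared. The stretch of 80 bases that holds the 1 difference, in capitals, is shown because AKR1C1 and AKR1C2 moved together.
AKR1C1, chr10:4963335-4963414, plus strand: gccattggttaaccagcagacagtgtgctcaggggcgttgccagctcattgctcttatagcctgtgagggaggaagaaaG
AKR1C2, chr10:5003862-5003941, minus strand: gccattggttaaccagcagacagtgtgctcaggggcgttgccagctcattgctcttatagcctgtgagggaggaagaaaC

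AKR1B10 took a different course from AKR1C1 in Hep3B IR cells. It was listed at 2.09 and 1.72 CPM in Hep3B parental, 0.638 and 1.23 CPM in DMSO, 0.0134 and 0.0569 CPM in IR and 1.96 and 3.47 CPM in CR libraries. Over both libraries these are 277 reads in parental and 5 reads in IR cells, a ratio of 55.3 with a 95% interval of 23.4 to 172 for counting error only. All IR values lay below all other Hep3B values. On log2(CPM + 1), which understates changes of low genes, the difference of -1.48 ± 0.54 missed the threshold (adjusted p = 0.0525), whereas edgeR on the recovered reads gave -5.77 (adjusted p = 0.000965). It was called lower in 9 of 17 alternatives, among them TMM and quantile scaling, DESeq2 and both smaller models, but not against DMSO libraries (-0.89) or without any 1 of the 4 libraries compared (-1.39 to -1.58). Huh7 libraries started at 6.04 CPM in replicate 2 of the parental cells, the highest were replicate 2 of DMSO and, at 35.2 CPM, of CR, and the groups overlapped. In its coding sequence 12.9% of 75-base stretches were shared, with AKR1B15 or the pseudogene AKR1B10P1.

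**Figure D2:**
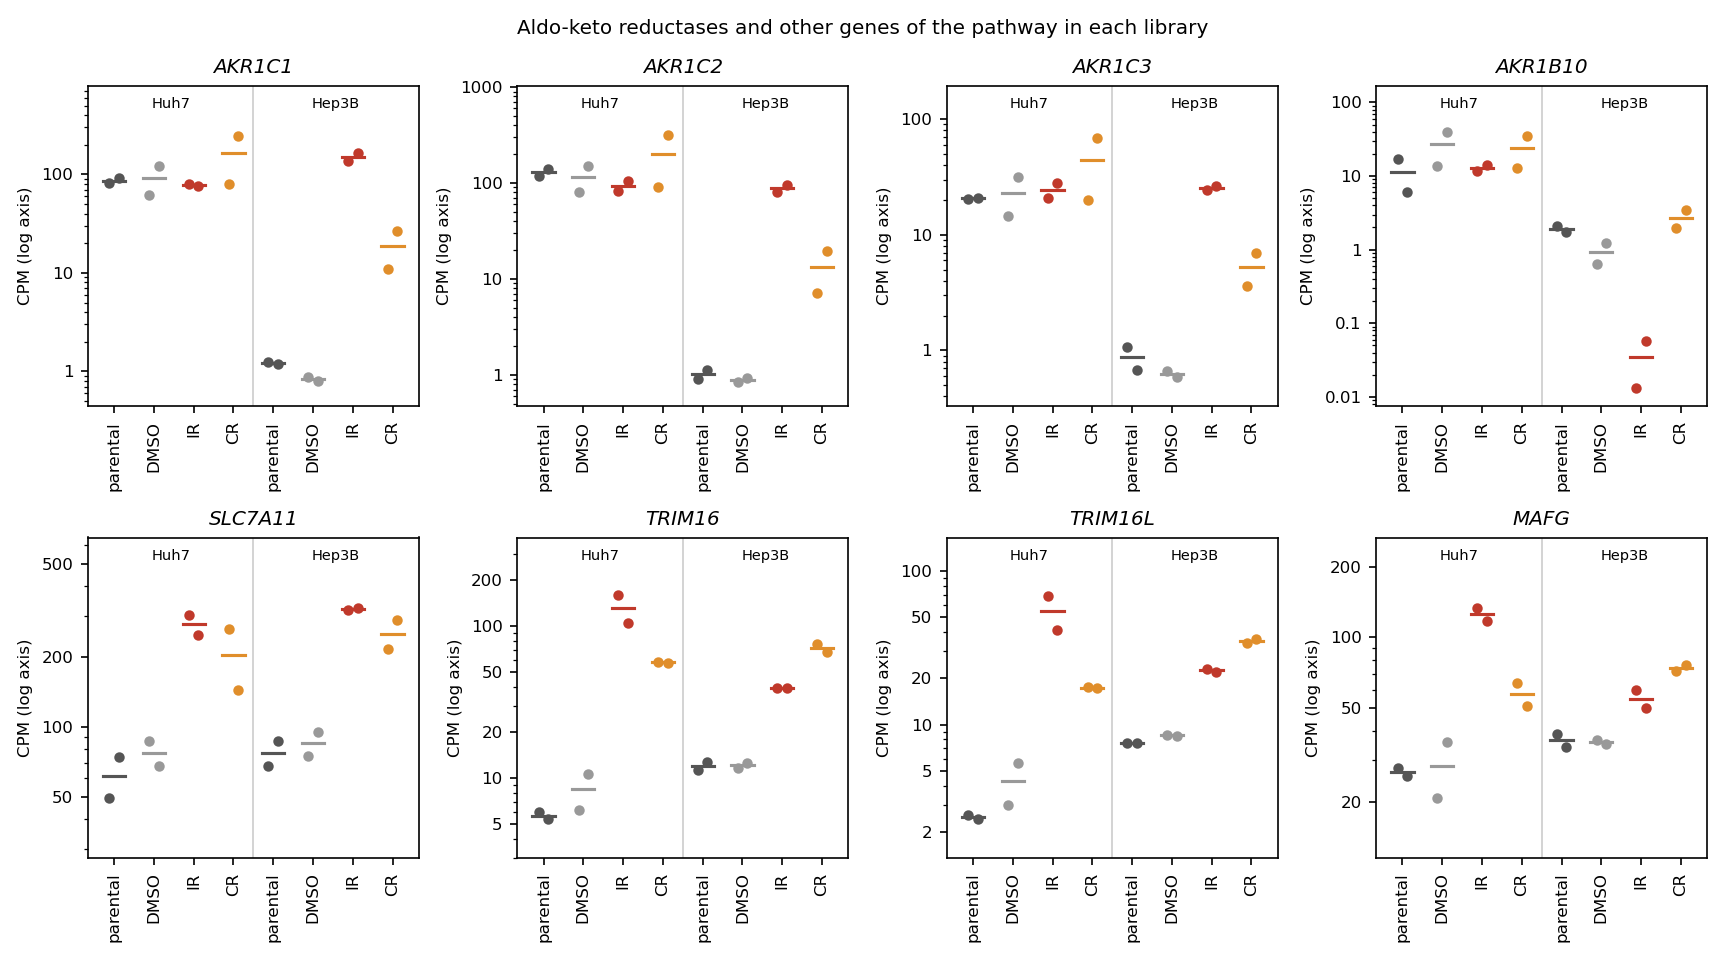
CPM (log axis) of the 3 AKR1C genes, AKR1B10 and 4 further NRF2 pathway genes in each library; points are libraries and short lines are means of 2 libraries. The 3 AKR1C genes are near 1 CPM in untreated Hep3B and high in Hep3B IR, AKR1B10 is lowest there, and SLC7A11, TRIM16 and TRIM16L are higher in all resistant groups.

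Counted together, 3 of the 10 genes fell and 0 rose in Huh7 IR cells (NFE2L2, NQO1 and GCLM), where 17.8% of all genes tested were called lower and 31.1% higher. In Huh7 CR cells 3 fell (NQO1, HMOX1 and GCLM) and 0 rose, against 13.6% lower and 20.9% higher. In Hep3B IR cells 2 rose (HMOX1 and AKR1C1) and 0 fell, against 15.7% higher and 11.4% lower, and AKR1B10 was called lower in 9 of 17 alternatives. In Hep3B CR cells 3 rose (HMOX1, TXNRD1 and AKR1C1) and 1 fell (NQO1), against 20% higher and 12.3% lower. With 10 genes these shares move by 10 percentage points for each gene, and the Hep3B shares are near those of all genes. No gene of the 10 was called the same way in all 4 resistant lines. The comparisons of IR and CR share the parental libraries of their line.

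**Figure D3:**
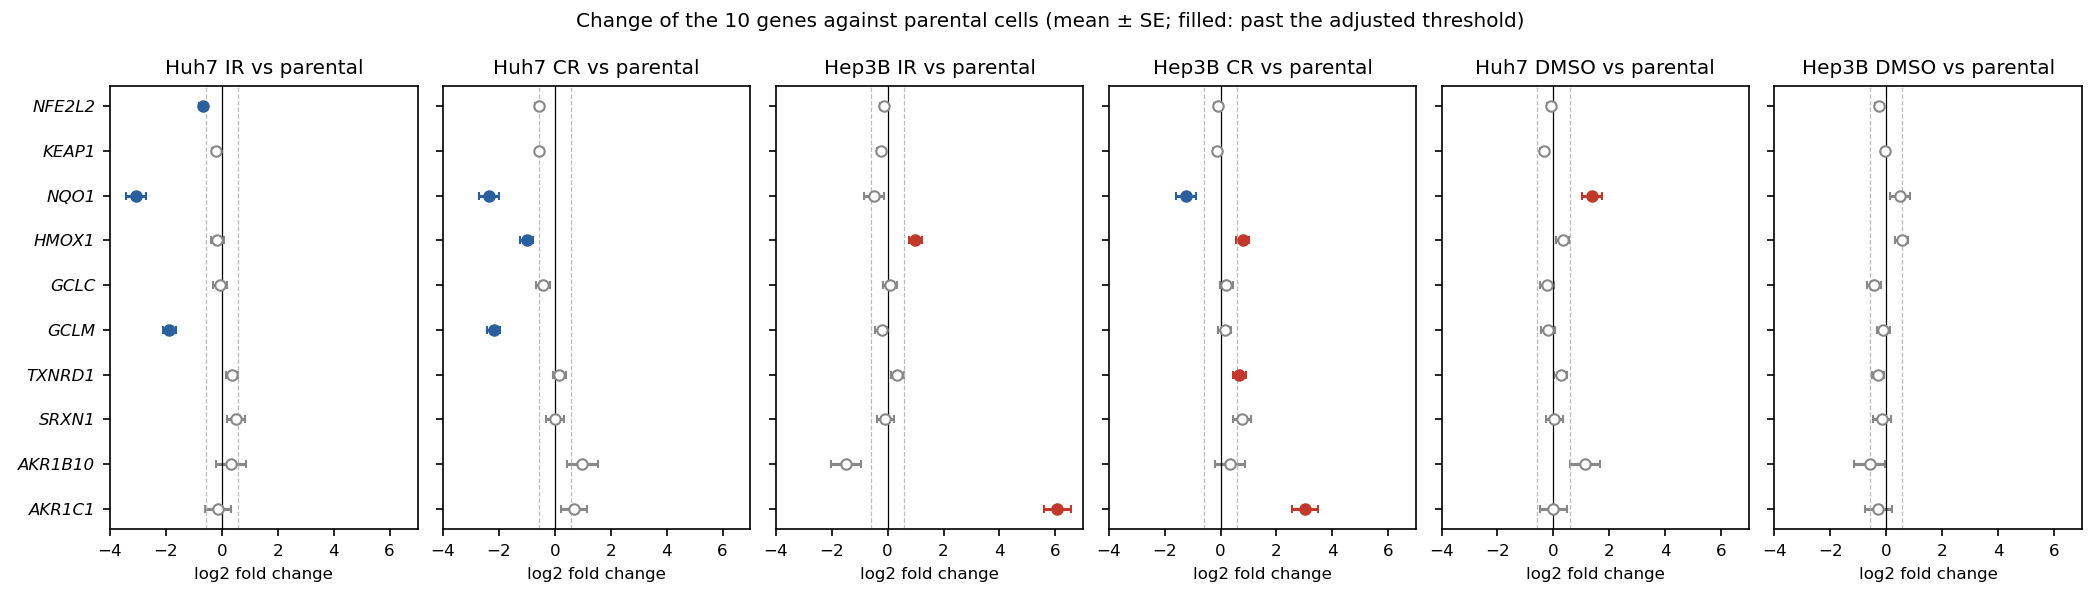
Log2 fold change on log2(CPM + 1) against parental cells (points, with SE as bars) of the 10 genes in 6 comparisons of 2 against 2 libraries; filled points passed the test (red higher, blue lower) and dashed lines mark 0.58 in either direction. Among the filled points are NQO1 and GCLM (blue) in both resistant Huh7 lines and AKR1C1 and HMOX1 (red) in both resistant Hep3B lines; the others are NFE2L2 in Huh7 IR, HMOX1 in Huh7 CR and NQO1 in Hep3B CR (blue), and TXNRD1 in Hep3B CR and NQO1 in Huh7 DMSO (red).

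The untreated DMSO cells served as a second control. In Huh7 DMSO cells 1 of the 10 genes, NQO1, was called higher (1.38 ± 0.36, adjusted p = 0.0457), where 3.46% of all genes were higher and 1.37% lower. The call was kept in 7 of 16 alternatives, and it was lost without either parental library (1.17 and 1.59) or replicate 2 of DMSO (1.28); without replicate 1 of DMSO, GCLM was called lower (-0.65) and AKR1B10 higher (1.87). In Hep3B DMSO cells 0 of the 10 were called by limma, and 0 by edgeR, by DESeq2 or with an unadjusted p, with 1.07% of all genes higher and 0.513% lower. HMOX1 came nearest, with a log2 fold change of 0.55 ± 0.23. Hypoxia genes were raised in replicate 2 of both DMSO groups (summed level of 10 genes 428 and 1215 CPM in Huh7 DMSO, 266 and 565 CPM in Hep3B DMSO, against 254 to 385 CPM in parental libraries). Their sum was also above that of both parental libraries of the line in all resistant libraries, at 445 to 671 CPM in Huh7 and 596 to 613 CPM in Hep3B, and its part in the comparisons of resistant cells was not tested. By gene, 1 of these 10 was called higher in each resistant Hep3B line (10%, against 15.7% of all genes in IR and 20% in CR). In Huh7, 3 were higher and 1 lower in IR (30% and 10%, against 31.1% and 17.8%). In Huh7 CR 3 were higher and 0 lower (30% and 0%, against 20.9% and 13.6%). Replicate 2 of Huh7 DMSO was also the library with less GCLM and NFE2L2 than replicate 1, and the part of the hypoxia genes in this was not tested either.

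IR and CR cells were compared directly as well. In Huh7, HMOX1 was higher in IR than in CR (0.85 ± 0.23, adjusted p = 0.0315), the only 1 of the 10 called, where 8.23% of all genes were higher and 5.43% lower in IR. The call was kept in 10 of 16 alternatives and lost without replicate 1 of IR (0.45) or either CR library (0.71 and 0.98), and without replicate 2 of IR, GCLC (0.77) and SRXN1 (1.14) were called as well. In Hep3B, AKR1C1 was higher in IR (3.05 ± 0.47, adjusted p = 0.00151) and AKR1B10 was lower (-1.81 ± 0.54, adjusted p = 0.0438), where 5.33% of genes were higher and 6.41% lower. The AKR1C1 call held in all 16 alternatives and that of AKR1B10 in 10, and without any 1 of the 4 libraries AKR1B10 was not called (-1.52 to -2.11).

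Parental Huh7 and Hep3B cells already differed in the programme. In Huh7, 5 of the 10 genes were higher and 0 lower, where 18.9% of all genes were higher and 23.7% lower. These were AKR1C1 (5.30 ± 0.47), NQO1 (3.37 ± 0.36), GCLM (2.24 ± 0.24), AKR1B10 (1.95 ± 0.54) and SRXN1 (1.35 ± 0.31). The AKR1B10 call was lost without replicate 1 of Huh7 (1.28) or replicate 2 of Hep3B (1.86). NFE2L2 was also above Hep3B levels, by 0.58 ± 0.14 (adjusted p = 0.00437), just short of the fold threshold before rounding, which it passed without replicate 2 of either line (0.59 without that of Huh7, 0.67 without that of Hep3B). For HMOX1 the value was 0.76 without replicate 2 of Hep3B. NFE2L2 was called in 5 and HMOX1 in 3 of 15 alternatives. With TMM factors and with DESeq2, 7 of the 10 genes were called higher, and with edgeR 6. GCLC went the other way without passing the test (-0.50 ± 0.25, adjusted p = 0.112).

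The change with resistance, from which that with the drug cannot be told apart, was also tested between the lines. It was taken as the mean of IR and CR over parental cells in Huh7 minus that in Hep3B. Of the 10 genes, 4 were called lower in this difference and 0 higher, where 13.1% of all genes were lower and 16.3% higher. AKR1C1 differed most (0.28 in Huh7 and 4.55 in Hep3B, adjusted p = 0.000214), followed by GCLM (-2.03 and -0.04, adjusted p = 0.000331), NQO1 (-2.70 and -0.85, adjusted p = 0.0071) and HMOX1 (-0.58 and 0.89, adjusted p = 0.00232). AKR1C1, GCLM and NQO1 were also called higher in parental Huh7 than in parental Hep3B cells. The same parental libraries enter both comparisons, so their results are not independent. NFE2L2 passed the adjusted p without reaching the fold threshold (-0.62 and -0.12, difference -0.49 ± 0.17, adjusted p = 0.0448), and against DMSO libraries it was called (-0.67, adjusted p = 0.0099). For TXNRD1 and SRXN1 the line values were 0.26 and 0.51, and 0.26 and 0.34, and neither difference passed the test (adjusted p = 0.532 and 0.897). Against DMSO libraries TXNRD1 was called (-0.81, adjusted p = 0.0392), which made 6 of the 10 genes lower. AKR1B10 went the other way without passing (1.23 ± 0.66, adjusted p = 0.179), was called higher by edgeR (3.19) and DESeq2 (3.24), and was at -0.51 against DMSO libraries.

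**Figure D4:**
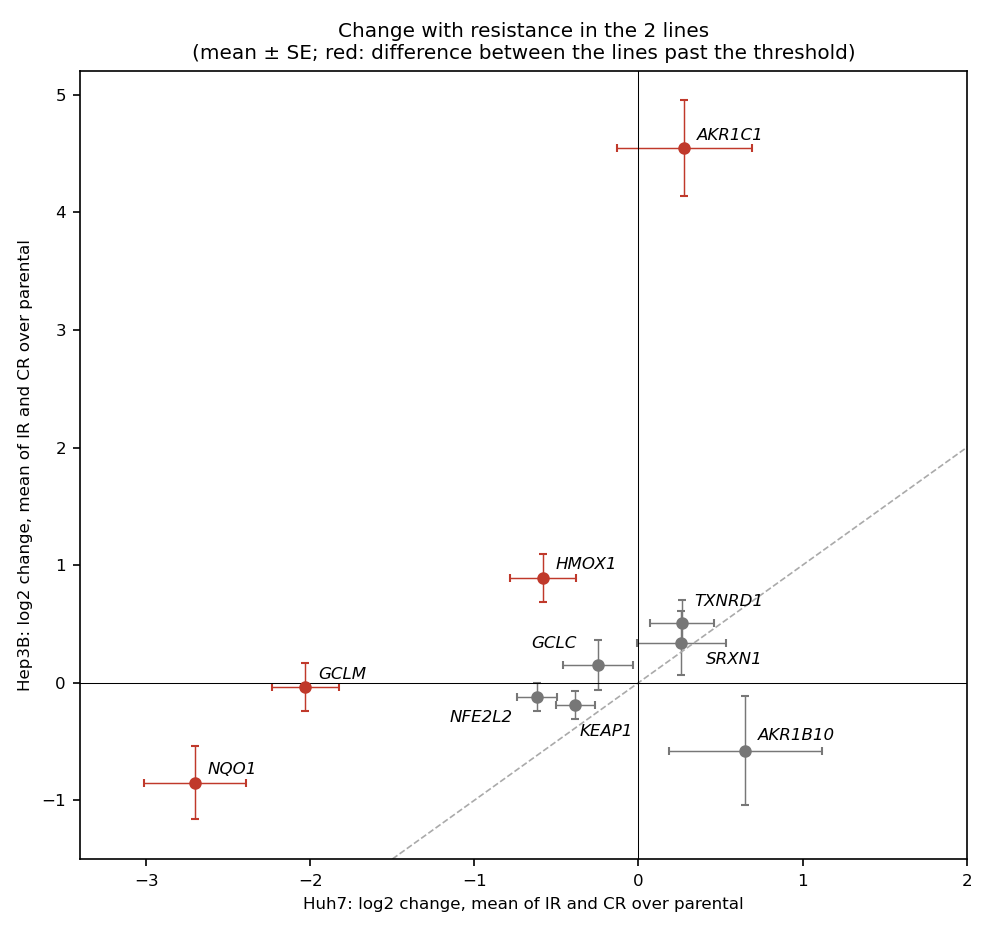
Log2 change with resistance (mean of IR and CR over parental, on log2(CPM + 1), with SE as bars) in Huh7 (x axis) and Hep3B (y axis) for the 10 genes; the dashed line marks equal change, and red points differed between the lines. AKR1C1, at 0.28 and 4.55, lies far above the line, and GCLM and NQO1 lie to its left at -2.03 and -2.70 in Huh7.

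Beyond the 10 genes, 70 further NRF2 pathway genes were followed, of which 67 passed the filter. They mix targets with 14 regulators and partners of NRF2, which do not all act in one direction. The pooled counts are therefore not a measure of NRF2 activity, and in Huh7 IR 10 of the higher genes were regulators or partners. In Huh7 IR cells 22 of them rose and 15 fell (32.8% and 22.4%, where 31.1% of all genes were higher and 17.8% lower), with a median log2 fold change of 0.15 against 0.19 over all genes. In Huh7 CR cells 19 rose and 11 fell (28.4% and 16.4%, against 20.9% and 13.6%), with a median of 0.17. This excess of higher genes was not stable. Against DMSO libraries 14 were higher and 13 lower in Huh7 CR, with a median of -0.10. Without replicate 2 of Huh7 CR the median against parental cells was -0.04. For Hep3B, 19 rose and 5 fell in IR cells (28.4% and 7.46%, against 15.7% and 11.4%), and 31 rose and 7 fell in CR cells (46.3% and 10.4%, against 20% and 12.3%, with a median of 0.54 against 0.11). The split in Huh7 IR depended on scaling, with 19 higher and 20 lower after TMM factors. Over all genes, too, the share of calls that were higher went from 63.6% to 52.8% in Huh7 IR with TMM factors and to 49.8% with quantile normalization.

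By role, the 14 other regulators and partners of NRF2 gave 10 higher and 2 lower in Huh7 IR (71.4% and 14.3%, beside 31.1% and 17.8% of all genes) and 9 higher and 1 lower in Hep3B CR cells (64.3% and 7.14%, beside 20% and 12.3%). In Huh7 CR they gave 7 higher and 0 lower (50% and 0%, beside 20.9% and 13.6%). In Hep3B IR they gave 3 higher and 0 lower (21.4% and 0%, beside 15.7% and 11.4%). Of 19 glutathione genes tested, 4 rose and 6 fell in Huh7 IR (21.1% and 31.6%), 5 rose and 6 fell in Huh7 CR (26.3% and 31.6%), 6 rose and 1 fell in Hep3B IR (31.6% and 5.26%), and 5 rose and 3 fell in Hep3B CR cells (26.3% and 15.8%), to be read against the same shares of all genes. The 12 detoxification genes tested gave 7 higher and 1 lower in Hep3B CR (58.3% and 8.33%) and 4 higher and 0 lower in Hep3B IR (33.3% and 0%). AKR1C2 and AKR1C3 were among the higher genes in both. These 12 gave 2 higher and 1 lower in Huh7 IR (16.7% and 8.33%), and 3 higher and 0 lower in Huh7 CR cells (25% and 0%). The 6 NADPH genes gave 1 higher and 3 lower in Huh7 IR (16.7% and 50%) and 0 higher and 2 lower in Huh7 CR (0% and 33.3%). In Hep3B these 6 gave 0 higher and 1 lower in IR (0% and 16.7%), and 3 higher and 0 lower in CR cells (50% and 0%). The 6 thioredoxin genes gave 3 higher and 1 lower in each resistant Huh7 line (50% and 16.7%). In each resistant Hep3B line 2 of them were higher and 2 lower (33.3% and 33.3%). The 10 iron, haem and other genes gave 2 higher and 2 lower in Huh7 IR (20% and 20%), and 1 and 2 in Huh7 CR (10% and 20%). In Hep3B they gave 4 and 1 in IR (40% and 10%), and 5 and 0 in CR (50% and 0%). These shares, too, are to be read against those of all genes, and some lie near them.

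**Figure D5:**
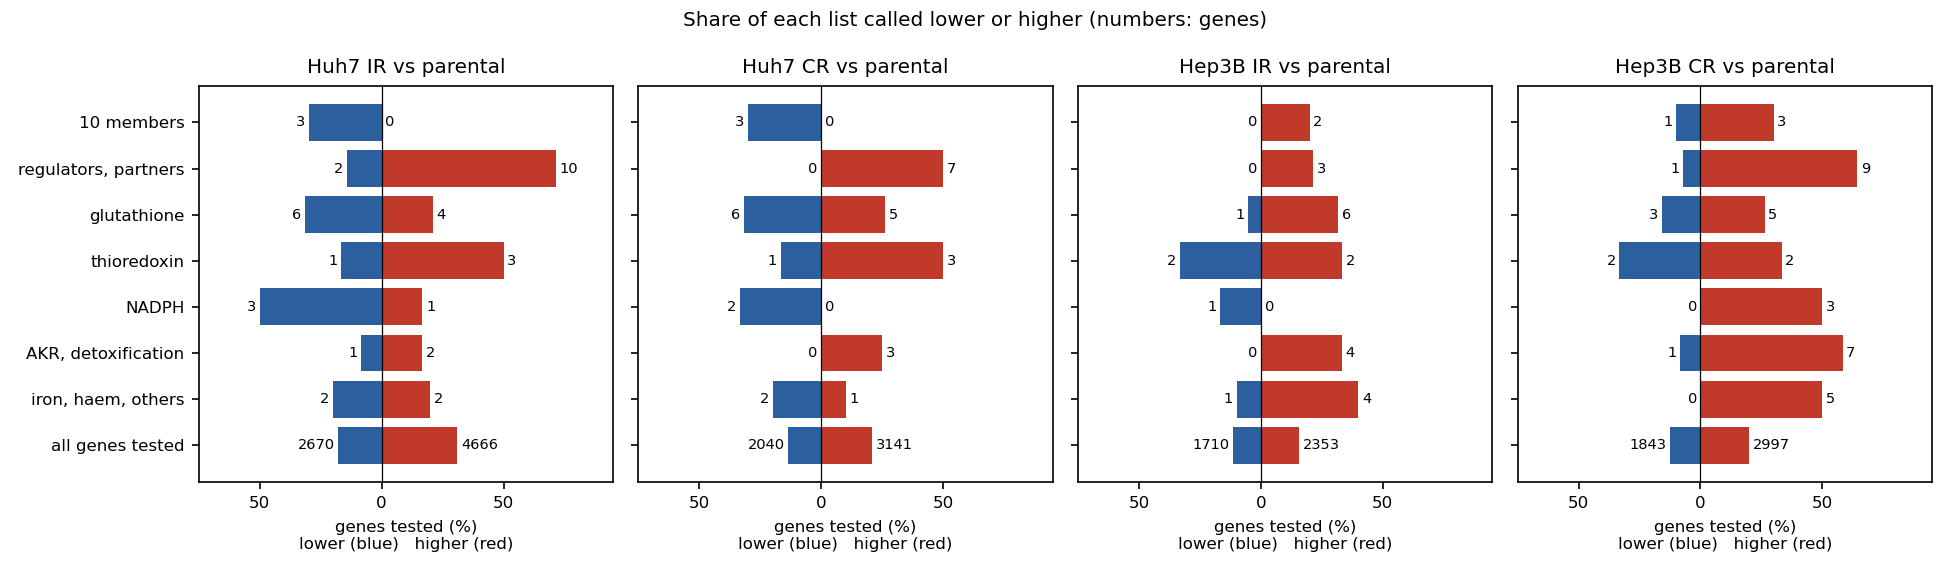
Share of the tested genes of each list called lower (blue, to the left) or higher (red, to the right) in the 4 comparisons of resistant with parental cells; figures beside the bars are numbers of genes. Of the 10 genes 3 are lower in Huh7 IR and 3 in Huh7 CR with 0 higher, while the other regulators and partners are mostly higher, with 10 in Huh7 IR and 9 in Hep3B CR.

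Of these 70 genes, 7 were called higher in all 4 resistant lines (NFE2L1, TRIM16, TRIM16L, SLC7A11, CHAC1, ABCC3 and SESN2), where 5.28% of all genes were. SLC7A11, the cystine carrier of system xc- that feeds glutathione synthesis, went from 49.3 and 74.0 CPM to 302 and 248 CPM in Huh7 IR and 263 and 144 CPM in Huh7 CR libraries. In Hep3B, SLC7A11 went from 68.2 and 86.8 CPM to 316 and 324 CPM in IR and 216 and 286 CPM in CR libraries. Thus SLC7A11 rose where GCLM fell in Huh7, with log2 fold changes of 2.16 ± 0.28 and 1.67 ± 0.28. CHAC1, a glutathione-degrading enzyme, and SESN2, a stress sensor, are also known targets of the ATF4 response, as SLC7A11 is.

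TRIM16, a ubiquitin ligase that is reported to act with NRF2, had the largest change of these 7 genes in Huh7 IR cells. It went from 5.97 and 5.40 CPM in Huh7 parental to 159 and 105 CPM in IR and 58.2 and 57.3 CPM in CR libraries (4.29 ± 0.23 and 3.14 ± 0.23). In Hep3B, TRIM16 went from 11.4 and 12.8 CPM to 39.3 and 39.0 CPM in IR and 76.3 and 67.7 CPM in CR libraries. TRIM16L, its near-copy, gave 3.96 ± 0.25 and 2.39 ± 0.25 in Huh7 IR and CR cells, and reads of the pair may have been split between them. The groups of TRIM16 and TRIM16L in untreated and resistant libraries did not overlap in either line.

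MAFG, a small MAF partner of NRF2, rose in Huh7 IR (2.19 ± 0.21), Huh7 CR (1.07 ± 0.21) and Hep3B CR cells (1.00 ± 0.21) and missed the threshold in Hep3B IR (0.58 ± 0.21, adjusted p = 0.0557). ME1, malic enzyme, a source of NADPH, fell in Huh7 IR and CR (-1.18 ± 0.17 and -1.34 ± 0.17), as NQO1 did, and rose in Hep3B CR cells (0.75 ± 0.17). TXN, thioredoxin, was not called in any resistant line (-0.46 to -0.02).

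Across the 16 libraries the 10 genes did not move as a block. On log2(CPM + 1), Pearson's r was 0.94 between NFE2L2 and GCLM, 0.87 between NQO1 and GCLM and 0.84 between TXNRD1 and SRXN1. Within Huh7 the r of NQO1 and GCLM was 0.87 and within Hep3B it was -0.38, each over 8 libraries. For NFE2L2 and GCLM it was 0.94 within Huh7 and 0.52 within Hep3B, and for TXNRD1 and SRXN1 0.88 and 0.80. Genes outside the 10 that followed them most closely were AKR1C3 and AKR1C2 for AKR1C1 (0.99 for both), ACMSD and XAGE2 for GCLM (0.98 for both), CD302 and its read-through LY75-CD302 for NQO1 (0.98 for both) and CCT7 and PSMD7 for NFE2L2 (0.97 and 0.96). For the others the nearest genes were TOMM40 and GPATCH3 (KEAP1), STARD5 and TMEM169 (HMOX1), ARIH1 and NOL7 (GCLC), DNAJB9 and DNAJC18 (TXNRD1), MRPS30 and NGLY1 (SRXN1), and ASMTL and TMED9 (AKR1B10), with r from 0.84 to 0.98. These points share cell line, drug and library, and the values are a description.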

How the data were processed

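RNA-seq values of 16 libraries (8 groups, 2 libraries each) were used. The authors deposited gene-level CPM, made from reads aligned with STAR to hg19, keeping uniquely mapped reads only, and counted over RefSeq exons with QuasR. Per the labels the libraries were stranded poly(A) libraries sequenced on a NextSeq 500. The study's methods name another sequencer and biological triplicates, and the labels were followed. Multiplying CPM by library totals recovered from their steps gave whole reads for 100% of values within 0.05 reads, so that counting tests could be run as alternatives. Entrez identifiers were matched to symbols (26111 of 26258). All 8 groups were fitted with limma 3.58.1 (R 4.3.3, mean-variance trend) on log2(CPM + 1) after the filter of 1 CPM in 2 libraries, and p-values were adjusted over all 15019 genes. The script was tested on simulated data. The methods call the replicates biological, but the labels do not say that the libraries of a group were separate cultures. The p-values therefore measure the spread between libraries, which may be technical. Alternatives were TMM and quantile scaling, pseudocounts of 0.25 and 4, no filter and a filter of 5 CPM, edgeR 4.0.16 and DESeq2 1.42.0 on the recovered reads, smaller models, a replicate block, unadjusted p, DMSO libraries as reference and leaving out each library.

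The 10 genes and the other lists were chosen with earlier results of these data known. Named were the 10 genes, those of the other lists called alike in all 4 resistant lines, SLC7A11, TXN, ME1, AKR1C2, AKR1C3 and MAFG, and for each of the 10 the 2 genes with the highest r; a further gene that the rule named is not reported here. Promoter sequences are from RefSeq (GRCh38.p14), and shared stretches were counted in GENCODE v44lift37 transcripts. Intervals cover counting error only.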

Additional observations from a re-analysis of the deposited data

Results flagged for a closer look

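For 4 of the 10 genes the change with resistance (mean of IR and CR over parental, log2) differed between Huh7 and Hep3B in limma's test of the difference itself. The parental libraries in that test also gave the starting differences between the lines, so the results are not independent of those. The difference, Huh7 minus Hep3B, was -1.85 ± 0.44 for NQO1 (adjusted p = 0.0071), -1.48 ± 0.29 for HMOX1 (adjusted p = 0.00232), -1.99 ± 0.29 for GCLM (adjusted p = 0.000331) and -4.27 ± 0.58 for AKR1C1 (adjusted p = 0.000214). Each of the 4 was called under all 24 alternatives.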

How the results depend on the processing

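Lower NQO1 and GCLM in Huh7 IR and CR, lower HMOX1 in Huh7 CR and higher AKR1C1 in Hep3B IR and CR cells were called under all 17 alternatives. The number of the 10 genes called in Huh7 CR went from 3 to 5 with TMM factors, edgeR and DESeq2, and was 3 to 4 when each library was left out. In Hep3B CR it went from 4 to 2 without any 1 library (lowest and highest 2). In Huh7 DMSO it went from 1 to 0 with TMM factors, quantile normalization, no filter, edgeR and models of one line or of the groups compared alone, and was 0 to 3 without single libraries. For Huh7 IR against CR it was 0 with quantile normalization and both smaller models, and 0 to 3 without single libraries. For Hep3B IR against CR it went from 2 to 1 with a pseudocount of 4, without a filter and without any 1 library. The cause was not tested. In Huh7 IR the NFE2L2 call was kept in 15 of 17 alternatives, and in Hep3B HMOX1 was kept in 15 (IR) and 12 (CR), NQO1 in 14 and TXNRD1 in 10 of 17 (CR). With replicate number as a block the 10 genes gave 3 calls in each resistant Huh7 line, 2 in the IR line and 4 in the CR line of Hep3B, as without it. By the labels, same-numbered libraries shared only a number. The correlation of their differences between replicates was over 0.1 in 13 of 28 pairs of groups (-0.22 to 0.44, median 0.07). Whether they shared more than the number was not tested. With 2 libraries per group, small changes cannot be told from replicate spread, which was largest in Huh7 DMSO and Huh7 IR.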

Other observations

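TXNIP, an arrestin-like protein that binds thioredoxin, is on the list of thioredoxin genes but outside the rule for named genes, and was singled out after its values were seen. It was at 42.0 and 48.7 CPM in Hep3B parental, 27.0 and 32.8 CPM in DMSO, 0.99 and 0.711 CPM in IR and 26.5 and 43.1 CPM in CR libraries. The log2 fold change in Hep3B IR cells was -4.65 ± 0.40 (limma, adjusted p = 6.2e-06), and both IR libraries lay below all other Hep3B libraries. In Huh7, TXNIP went the other way, from 29.7 and 24.5 CPM in parental to 75.8 and 115 CPM in IR and 93.1 and 116 CPM in CR libraries (1.75 ± 0.40 and 1.91 ± 0.40). The Huh7 DMSO libraries, at 43.7 and 132 CPM, overlapped the resistant ones.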
